A study of Homo sapiens with 6 samples.

Results

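The genes of the DNA replication fork and of replication origins were followed in SW480 cells, a long-established human line from a colon adenocarcinoma. The 46 genes were taken by symbol from the 20289 genes of the deposited table, all 46 matched, and all passed the filter on low counts that left 12920 genes for testing. They encode the origin recognition complex, the licensing factors and their inhibitor, the replicative helicase and the factors that activate it, the polymerases, the sliding clamp and its loader, the single-strand binding protein RPA, and enzymes that finish Okazaki fragments.

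The study sequenced mRNA of 6 libraries. The 3 LV-NC libraries are the control, labelled WT in genotype and none or LV-NC in treatment. The 3 MUCP1-FLAG libraries come from SW480 cells labelled as overexpressing MUCP1 with a FLAG tag, a microprotein named in the title of the series. Serum-supplemented L-15 was the medium of both groups. The labels call the libraries biological replicates and give no vector, promoter, clone, pool, day or passage, so the p-values measure the spread between these libraries and what else differed between the cultures cannot be told apart from the transgene. The table holds no gene named MUCP1, and its overexpression was therefore not verified here.

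Before a cell copies its genome, the origin recognition complex, CDC6 and CDT1 load the MCM helicase onto DNA, a step called licensing that geminin blocks once S phase has begun. CDC45 and the GINS complex then join the helicase and turn it on, polymerase alpha with primase lays down primers, and polymerases epsilon and delta extend the leading and lagging strands while held by the PCNA ring. Many of these genes are known targets of E2F transcription factors and are transcribed mainly around the start of S phase, and dividing tumour cells of the colon are known to express them strongly.

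Total counts ran from 17333329 to 23282604 per library, and the counts of the 46 genes from 172 (POLD4) to 20788 (MCM7). The groups separated on the first principal component of log2 CPM (42.5% of variance), and the second (17.7%) set the LV-NC libraries apart from each other, between −17.5 and 18.3. Of 10 colon epithelium markers, KRT8, KRT18 and KRT19 were abundant, whereas KRT20 and CEACAM5 had at most 3 and 2 counts in any library. The summed level of the 10 was 4004 to 4381 FPKM (fragments scaled to gene length and sequencing depth) in LV-NC and 4213 to 4347 FPKM in MUCP1-FLAG. EPCAM, VIL1, CDH1 and CLDN7 were lower in MUCP1-FLAG, with log2 fold changes of −0.33, −0.40, −1.06 and −1.18, and KRT19 was higher with 0.17. Markers of blood cells summed to 9.84 to 11.4 and 4.79 to 7.42 FPKM, nearly all from CD68 (log2 fold change −0.62), with PTPRC at 0 counts. Fibroblast markers (0.22 to 0.46 and 0.12 to 0.45 FPKM) and endothelium markers (0.27 to 0.39 and 0.32 to 0.47 FPKM) were close to 0, with COL1A2, COL3A1, DCN, PECAM1, CDH5 and KDR at 0 counts. The part of these marker differences in the results below was not tested.

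Replication genes were modestly higher in MUCP1-FLAG cells. Of the 46 genes 24 rose and 0 fell at an edgeR adjusted p under 0.05, which is 52.2% of them, whereas 8.35% of all genes tested were higher and 7.71% lower. At an unadjusted p under 0.05 edgeR had 33 higher and 0 lower, beside 14.7% of all genes in each direction. DESeq2 called 21 higher and 0 lower, beside 7.12% and 6.36% of all genes. The rises were small, from 12.0% (POLD2) to 38.5% (CDC45), with a median log2 fold change of 0.26 among the 24 and of 0.18 among all 46, against −0.00 for all genes tested. The 22 genes not called had a median of 0.12. The values of the 3 MUCP1-FLAG libraries all lay above those of the 3 LV-NC libraries for 34 of the 46 genes and all below for 0, whereas over all genes tested the shares were 16.6% above and 16.4% below. In bulk RNA, more cells in S phase and more transcript per cell cannot be told apart.

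The count of called genes depended on single libraries and on the scale. Leaving out LV-NC replicate 2 gave 13 and leaving out MUCP1-FLAG replicate 3 gave 15, settings that also lowered the number of higher genes over the whole table from 1079 to 671 and 639. With limma on log2(FPKM + 1) it was 10 higher and 0 lower, when 3.98% of all genes were higher and 4.21% lower, and the 10 were CDC6, GMNN, MCM3, MCM6, CDC45, GINS2, MCM10, PCNA, FEN1 and LIG1. Of the 24 genes, 12 were called with any one library left out, namely CDC45, CDC6, FEN1, GINS2, GMNN, LIG1, MCM3, MCM4, MCM6, PCNA, POLA2 and POLE. Of the 46 genes, 21 had in the authors' deposited table an FDR under 0.05, all higher in MUCP1-FLAG and all among the 24. The share of all genes under that FDR was not determined here.

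**Figure D1:**
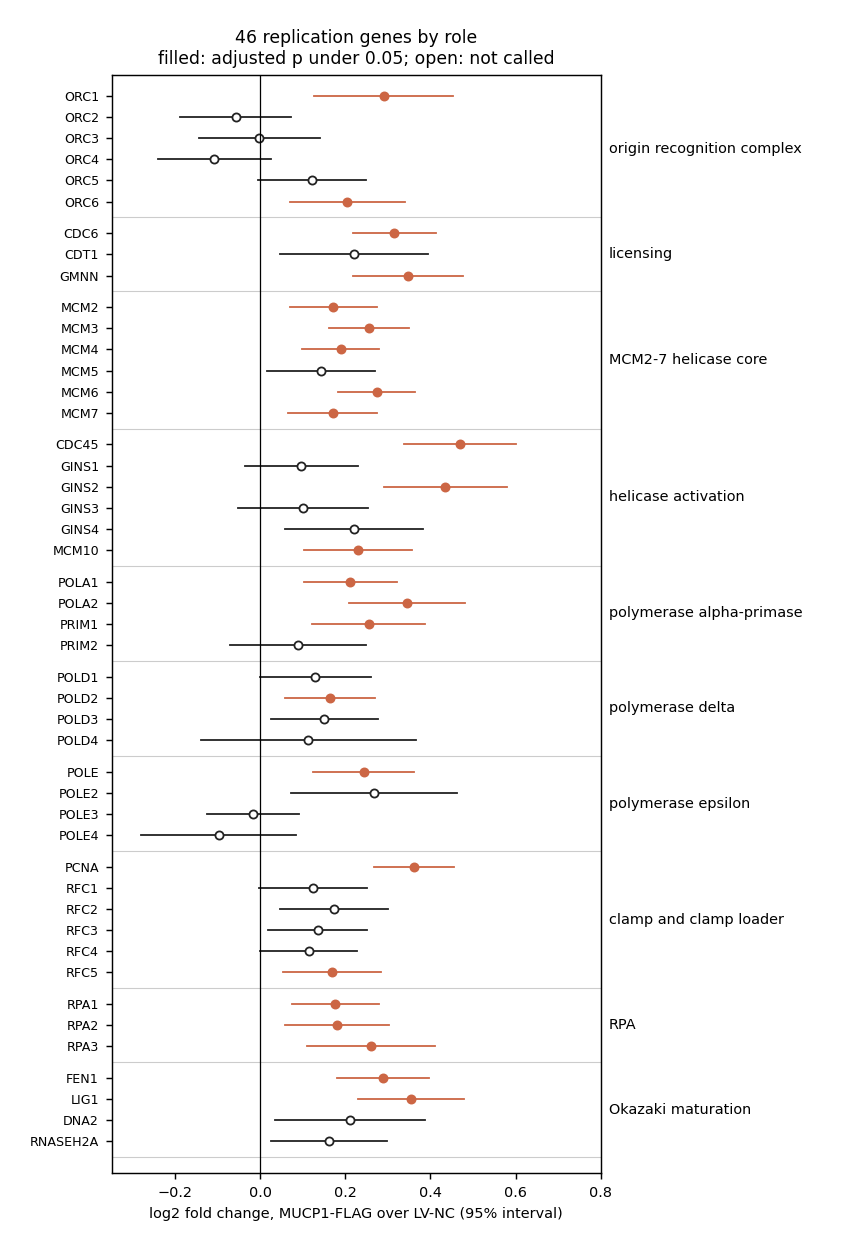
Log2 fold change of MUCP1-FLAG over LV-NC (horizontal axis) for each of the 46 genes, grouped by role, with its 95% interval from the edgeR fit. Filled points are the 24 genes called at an adjusted p under 0.05, all to the right of 0, and the 5 points left of 0 belong to ORC2, ORC3, ORC4, POLE3 and POLE4.

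The rise was seen in each MUCP1-FLAG library and across most of the 46 genes. Relative to each gene's LV-NC mean on the log2 CPM scale, the median of the 46 genes was 0.03, −0.01 and −0.03 for LV-NC replicates 1 to 3 and 0.21, 0.20 and 0.17 for MUCP1-FLAG. The LV-NC medians lie near 0 because each gene was centred on its own LV-NC mean. All 3 lay below all 3 MUCP1-FLAG medians. The share of all counts that fell on the 46 genes was 0.504%, 0.484% and 0.482% for LV-NC, and for MUCP1-FLAG 0.566%, 0.547% and 0.553%. MUCP1-FLAG replicate 1 held the highest value of the 6 libraries for 20 genes, and LV-NC replicate 3 the lowest for 23. Within groups the median coefficient of variation of a gene was 4.68% in LV-NC and 3.37% in MUCP1-FLAG.

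**Figure D2:**
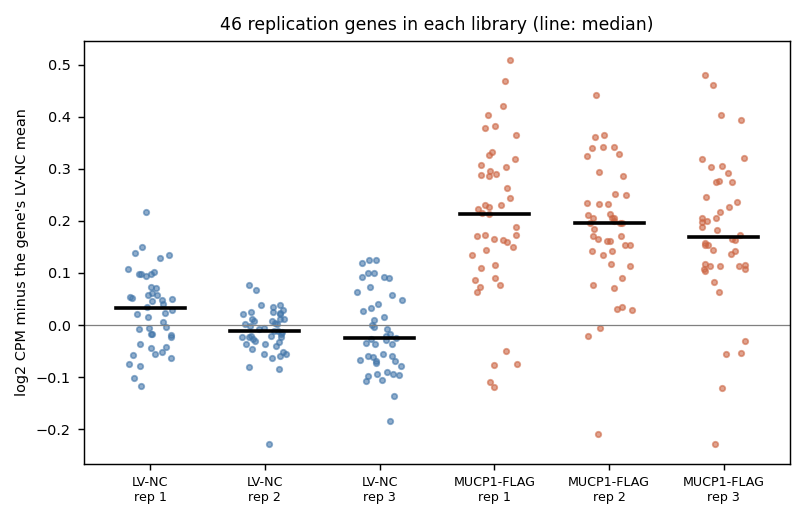
Each point is 1 of the 46 genes in 1 library, as its log2 CPM minus the mean of that gene in LV-NC (vertical axis), and the bar is the median of the library. The 3 MUCP1-FLAG medians of 0.17 to 0.21 lie above the 3 LV-NC medians of −0.03 to 0.03, and a few genes in each MUCP1-FLAG library lie below 0.

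Since many of the genes moved together, their promoters are shown for the 3 genes with the smallest adjusted p, PCNA, CDC45 and CDC6. MCM6, the next in that order, was added after its values were seen because its window holds repeated E2F words. Each is the first window listed for the gene in a RefSeq promoter table of build GRCh38.p14, from 250 bases before to 50 bases after a start site, written 5′ to 3′ on the strand of the gene. Capitals mark E2F words and CCAAT on either strand. The windows are chr20:5126573-5126872 for PCNA and chr2:135876394-135876693 for MCM6, on the minus strand, and chr22:19479670-19479969 for CDC45 and chr17:40287629-40287928 for CDC6, on the plus strand. In GENCODE 29 on GRCh38 the genes themselves span chr20:5114953-5126626 (PCNA, ENSG00000132646), chr22:19479459-19520612 (CDC45, ENSG00000093009), chr17:40287633-40304657 (CDC6, ENSG00000094804) and chr2:135839626-135876426 (MCM6, ENSG00000076003). The 5′ end of the annotated gene lies inside the window for PCNA, CDC6 and MCM6. For CDC6 it lies close to the first base of the window, so nearly all of that window is inside the annotated gene. The CDC45 window lies wholly inside the annotated gene.
PCNA: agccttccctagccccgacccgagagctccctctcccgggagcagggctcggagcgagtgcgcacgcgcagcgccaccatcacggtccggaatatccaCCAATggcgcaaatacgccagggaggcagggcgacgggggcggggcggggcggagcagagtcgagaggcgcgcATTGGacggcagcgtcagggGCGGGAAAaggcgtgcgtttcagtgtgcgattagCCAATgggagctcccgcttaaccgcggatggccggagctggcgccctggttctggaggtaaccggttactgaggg
CDC45: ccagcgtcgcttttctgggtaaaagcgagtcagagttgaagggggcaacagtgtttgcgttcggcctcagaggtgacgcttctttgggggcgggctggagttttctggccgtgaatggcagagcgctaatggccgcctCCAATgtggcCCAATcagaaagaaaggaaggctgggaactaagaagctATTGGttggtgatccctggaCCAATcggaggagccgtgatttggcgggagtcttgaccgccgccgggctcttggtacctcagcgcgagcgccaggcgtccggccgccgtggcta
CDC6: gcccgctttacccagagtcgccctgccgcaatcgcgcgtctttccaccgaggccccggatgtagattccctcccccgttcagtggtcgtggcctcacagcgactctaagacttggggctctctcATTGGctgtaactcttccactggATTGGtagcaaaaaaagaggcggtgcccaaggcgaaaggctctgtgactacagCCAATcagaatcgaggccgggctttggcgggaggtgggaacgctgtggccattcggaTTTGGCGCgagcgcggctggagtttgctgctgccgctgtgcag
MCM6: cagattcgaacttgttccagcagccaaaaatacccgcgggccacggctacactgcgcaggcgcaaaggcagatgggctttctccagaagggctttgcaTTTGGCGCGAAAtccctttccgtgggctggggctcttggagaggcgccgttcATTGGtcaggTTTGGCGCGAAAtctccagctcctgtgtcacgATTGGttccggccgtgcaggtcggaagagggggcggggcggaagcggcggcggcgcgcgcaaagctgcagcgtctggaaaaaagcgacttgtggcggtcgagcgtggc

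The PCNA window holds the E2F word GCGGGAAA, 59 bases before the start site and overlapping a GC box, and CCAAT in 3 places. CDC6 holds TTTGGCGC 7 bases after its start site and CCAAT in 3 places. In MCM6 the stretch TTTGGCGCGAAA, which reads as an E2F word on both strands, occurs 152 and 90 bases before the start site. CDC45 holds CCAAT in 4 places and none of the E2F words searched. The CDC45 and CDC6 windows also hold TTTGGCGG, which differs from the searched TTTGGCGC in its last letter and was not counted. A match is only a description of these letters and not evidence that a factor binds, and a window without a match says only that these letters are absent from it.

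The words searched on both strands were TTTGGCGC, TTTCCCGC, TTTCGCGC and TTTGCCGC for E2F, TTTGAA and TTTCGAA for the CHR element of late cell cycle genes, CCAAT, the word bound by the factor NF-Y, and GGGCGG for the GC box. E2F words can overlap each other, as in MCM6, or a GC box, as in PCNA. A promoter was listed for 39 of the 46 genes, with 51 windows in all, and not for MCM4, MCM5, GINS4, POLD3, RPA2, RPA3 and DNA2. An E2F word was found for 19 of the 39 genes (48.7%), against 6.70% of the 10299 tested genes with a listed promoter, and in 37.3% of the windows of these genes against 3.31% of all 35116 windows. Among genes called higher it was found for 12 of 21, and among those not called for 7 of 18. CCAAT was found for 24 of the 39 genes (61.5%), against 42.9% of tested genes, and in 56.9% of their windows against 34.6% of all windows. It was present for 17 of the 21 called genes and 7 of the 18 others.

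Both words were found for 12 genes, of which 9 were called, and neither for 8, of which FEN1 was the one called. An E2F word without CCAAT was found for 7 genes, of which 3 were called. CCAAT without an E2F word was found for 12, of which 8 were called. The GC box was about as frequent in these genes (29 of 39, 74.4%) as in tested genes (78.4%), and the CHR words were found for 1 of 39 (2.56%) against 14.1%. Over all windows the shares were 45.0% for the GC box and 15.7% for the CHR words. The motif groups overlapped widely in response. Genes with an E2F word had log2 fold changes from −0.10 to 0.44 with a median of 0.24, and the 20 without from −0.11 to 0.47 with a median of 0.16. These counts carry no test and cover only the words searched, so CDC45 stands among the genes without an E2F word despite its near match.

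The origin recognition complex, which marks origins and starts the loading of the helicase, had 2 of its 6 subunits called higher and a median log2 fold change (0.06) that was the lowest among the 10 roles. ORC1, the ATPase subunit whose level cycles with cell division, measured 32.5, 30.2 and 30.2 CPM across LV-NC and 41.4, 38.7 and 33.5 CPM across MUCP1-FLAG. The lowest MUCP1-FLAG value was close to the highest LV-NC value, and the log2 fold change was 0.29 ± 0.08 (SE, edgeR adjusted p 0.0139). ORC6, the smallest subunit, measured 36.1, 34.9 and 34.7 CPM across LV-NC and 39.7, 40.6 and 41.5 CPM across MUCP1-FLAG, also without overlap, and rose by 0.20 ± 0.06 (edgeR adjusted p 0.0345). The adjusted p of ORC1 exceeded the threshold when LV-NC replicate 2 was left out (0.0656), or MUCP1-FLAG replicate 1 or 2 (0.103 and 0.0636). That of ORC6 did so without LV-NC replicate 2 (0.128) or any one MUCP1-FLAG library (0.0684, 0.103 and 0.139), with upper-quartile scaling (0.053) and in DESeq2 (0.0595).

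The other ORC subunits form the core ring together with ORC1 and were not called. ORC2 had a log2 fold change of −0.06 ± 0.06, ORC4 −0.11 ± 0.06 and ORC5 0.12 ± 0.06, with edgeR adjusted p of 0.588, 0.279 and 0.189. ORC3 stood at −0.00 ± 0.07 (adjusted p in edgeR 0.987), and its sign turned with single libraries left out. Their 95% intervals, such as −0.14 to 0.14 for ORC3 and −0.24 to 0.03 for ORC4, reach no further than 0.25 in size. ORC5 had an adjusted p of 0.0422 when LV-NC replicate 3 was left out.

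Of the licensing group, CDC6 and geminin rose, while CDT1 did not pass the test. CDC6, the ATPase that completes the helicase loader, measured 198, 192 and 195 CPM across LV-NC and 254, 238 and 236 CPM across MUCP1-FLAG. All MUCP1-FLAG values lay above all LV-NC values, by far more than the spread within either group, and the log2 fold change was 0.31 ± 0.05 (edgeR adjusted p 6.16e-05). GMNN, which encodes geminin, the inhibitor of CDT1, measured 37.0, 38.1 and 37.2 CPM across LV-NC and 48.6, 47.4 and 46.7 CPM across MUCP1-FLAG. It rose 1.27-fold, with a log2 fold change of 0.35 ± 0.06 and an edgeR adjusted p of 0.000496, again without overlap.

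CDT1, the partner of CDC6 in loading the helicase, measured 40.8, 34.3 and 30.9 CPM across LV-NC and 42.1, 41.8 and 39.6 CPM across MUCP1-FLAG. LV-NC replicate 1 lay within the MUCP1-FLAG range, so the groups overlapped, and the log2 fold change of 0.22 ± 0.08 did not pass (95% interval 0.05 to 0.39, edgeR adjusted p 0.0785). Without LV-NC replicate 1 its adjusted p was 0.0019. The ratio of GMNN to CDT1 on the FPKM scale was 2.17 to 3.02 in LV-NC and 2.72 to 3.07 in MUCP1-FLAG. These ranges overlap, and a change in the ratio was not tested. Of 7 such ratios, those of CDC6 to CDT1, MCM7 to MCM5 and POLD2 to POLD1 also overlapped between groups, and the other 3 did not. These 7 pairs were picked by hand. How often other pairs of genes lie apart was not determined, and none of the ratios was tested.

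The MCM2-7 hexamer, the core of the replicative helicase, had 5 of its 6 subunits called higher. MCM6 measured 282, 279.8 and 281 CPM across LV-NC and 345, 329.8 and 344 CPM across MUCP1-FLAG. Its LV-NC libraries differed by less than 1%, the groups lay far apart and it rose by 0.27 ± 0.04 (edgeR adjusted p 0.00013). MCM3 measured 235, 224 and 224 CPM across LV-NC and 279, 268 and 270.2 CPM across MUCP1-FLAG and rose by 0.26 ± 0.04 (edgeR adjusted p 0.0004). MCM4, which carries much of the helicase activity together with MCM6 and MCM7, measured 420.0, 402 and 398 CPM across LV-NC and 475, 455 and 461 CPM across MUCP1-FLAG and rose by 0.19 ± 0.04 (edgeR adjusted p 0.00462). In these genes every MUCP1-FLAG library exceeded every LV-NC library.

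MCM2, a subunit that also binds histones, measured 270.1, 244 and 239 CPM across LV-NC and 280.0, 282 and 286 CPM across MUCP1-FLAG. MCM7, the most abundant transcript of the 46, measured 877, 825 and 762 CPM across LV-NC and 962, 905 and 906 CPM across MUCP1-FLAG. Both rose by 0.17 ± 0.05 without overlap, with edgeR adjusted p of 0.0198 and 0.0236, and the highest LV-NC value was replicate 1 in each. MCM2 no longer passed without LV-NC replicate 2 (0.122) or else without MUCP1-FLAG replicate 1, 2 or 3 (0.0563, 0.0636 and 0.104). MCM7 no longer passed without LV-NC replicate 2 (0.0783) or else without MUCP1-FLAG replicate 1 or 3 (0.131 and 0.0682). MCM5, at 132, 118 and 109 CPM across LV-NC and 136, 131 and 129 CPM across MUCP1-FLAG, was the subunit whose groups overlapped, again through LV-NC replicate 1. Its log2 fold change was 0.14 ± 0.06 (edgeR adjusted p 0.124), and without that library the adjusted p was 0.00477.

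Among the factors that turn the loaded helicase on, CDC45 and GINS2 showed the largest rises of the 46 genes on the count scale, whereas on the FPKM scale that of LIG1 was larger. CDC45, which forms the active helicase with MCM2-7 and GINS, measured 36.7, 34.7 and 34.4 CPM across LV-NC and 50.2, 47.9 and 48.6 CPM across MUCP1-FLAG. The groups were parted by a gap wider than the range of either, and the rise was 1.38-fold, 0.47 ± 0.06 on the log2 scale (edgeR adjusted p 2.26e-05). GINS2 measured 36.3, 34.1 and 31.8 CPM across LV-NC and 47.0, 43.8 and 47.4 CPM across MUCP1-FLAG and rose 1.35-fold, 0.44 ± 0.07 on the log2 scale (edgeR adjusted p 0.000132). MCM10, which acts at the step where the helicase is set going, measured 48.1, 48.3 and 53.4 CPM across LV-NC and 57.9, 59.2 and 58.3 CPM across MUCP1-FLAG. It rose by 0.23 ± 0.06 (edgeR adjusted p 0.0128), and did not pass without LV-NC replicate 2 (0.086) or else MUCP1-FLAG replicate 2 or 3 (0.0604 and 0.0598).

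The subunits of the GINS tetramer did not all pass with GINS2. GINS1 had a log2 fold change of 0.10 ± 0.06 (95% interval −0.04 to 0.23), GINS3 one of 0.10 ± 0.07 (−0.05 to 0.25) and GINS4 one of 0.22 ± 0.08 (0.06 to 0.38), with edgeR adjusted p of 0.341, 0.39 and 0.0608. On the CPM scale the 3 MUCP1-FLAG values lay above the 3 LV-NC values in each of them, as they did for 16.6% of all genes tested. On the FPKM scale the groups overlapped for GINS1. Leaving out LV-NC replicate 1 gave GINS4 an edgeR adjusted p of 0.0232. The ratio of MCM10 to CDC45 on the FPKM scale was 0.691 to 0.788 in LV-NC and 0.648 to 0.659 in MUCP1-FLAG, without overlap. A change in this ratio was not tested. The interval of GINS2 was 0.29 to 0.58, and the difference between subunits was not tested.

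**Figure D3:**
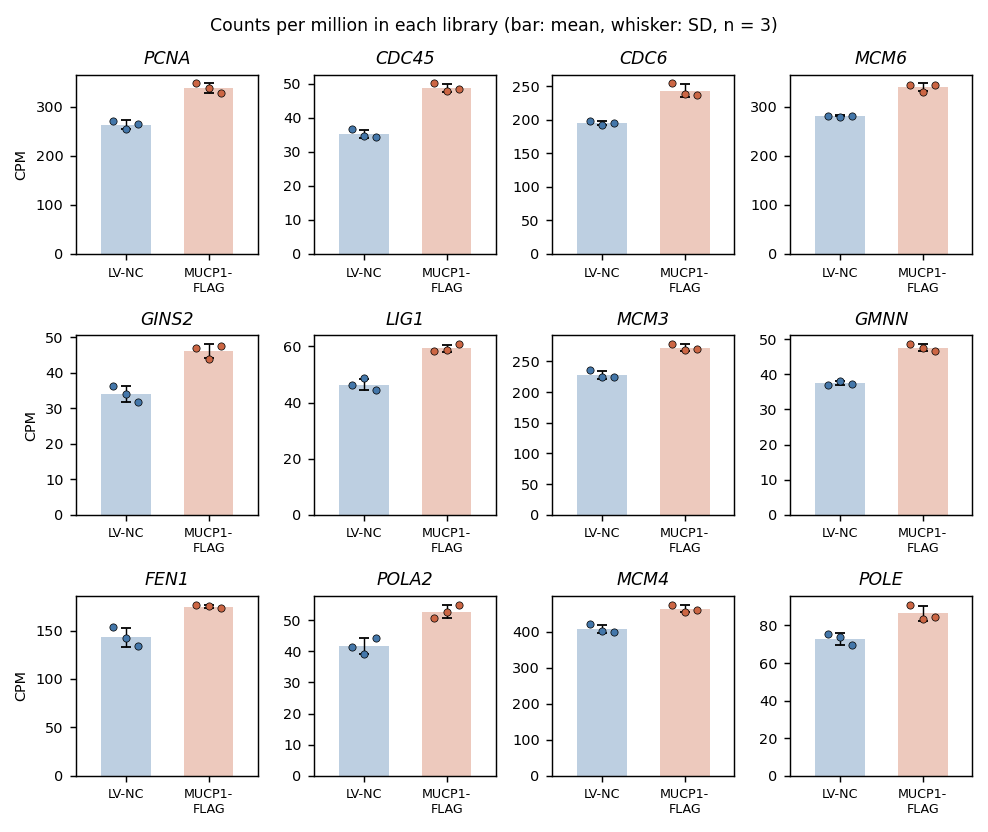
CPM in each library (points), with the group mean (bar) and SD (whisker, n = 3), for the 12 genes that were called with any one library left out. In every panel the 3 MUCP1-FLAG points lie above the 3 LV-NC points, and the vertical axes start at 0.

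Of polymerase alpha-primase, which makes the RNA and DNA primers, 3 of 4 subunits rose. POLA2, the regulatory subunit of the polymerase, measured 41.4, 39.2 and 44.2 CPM across LV-NC and 50.7, 52.7 and 55.0 CPM across MUCP1-FLAG, without overlap, and rose by 0.34 ± 0.07 (edgeR adjusted p 0.000803). POLA1, the catalytic subunit, measured 81.7, 82.5 and 87.2 CPM across LV-NC and 99.2, 96.0 and 96.1 CPM across MUCP1-FLAG and rose by 0.21 ± 0.05 (edgeR adjusted p 0.00804). PRIM1, the catalytic subunit of primase, measured 52.5, 49.4 and 52.4 CPM across LV-NC and 66.1, 60.3 and 57.6 CPM across MUCP1-FLAG and rose by 0.25 ± 0.06 (edgeR adjusted p 0.00804). The MUCP1-FLAG libraries were the higher ones throughout.

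PRIM2, the large subunit of primase, stood at 0.09 ± 0.08 on the log2 scale with overlapping groups (edgeR adjusted p 0.489), and its sign turned on the FPKM scale. POLA1 lost its call without LV-NC replicate 2 (0.0569) or else MUCP1-FLAG replicate 1 (0.0507), and PRIM1 without the same libraries (0.0611 and 0.0749). In GENCODE 29 the exons of POLA2 overlap those of AP000944.2 on the same strand over 35.1% of their length. Those of PRIM1 overlap NACA, AC117378.1 and, on the opposite strand, HSD17B6 over 21.6%. The sources used here do not give how reads of overlapping genes were counted, so these values are uncertain. The same holds for POLD4 (21.3%, on the same strand). MCM2 and GINS4 (23.6% each) overlap only genes on the opposite strand, and the strand setting of the counts is not given. Reads of RPA2, RFC3, RFC5, POLD2 and FEN1 could be shared with pseudogenes named after them.

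Of the polymerases that extend the strands, 1 of 4 genes was called higher for polymerase delta and 1 of 4 for polymerase epsilon. POLE, the catalytic subunit of the leading-strand polymerase, measured 75.5, 74.0 and 69.5 CPM across LV-NC and 91.0, 83.5 and 84.7 CPM across MUCP1-FLAG. All MUCP1-FLAG values were higher, and the log2 fold change was 0.24 ± 0.06 (edgeR adjusted p 0.0051). POLD2, an accessory subunit of the lagging-strand polymerase, measured 203, 199 and 183 CPM across LV-NC and 207, 223 and 225 CPM across MUCP1-FLAG. MUCP1-FLAG replicate 1 lay close to the highest LV-NC values, and the rise was 0.16 ± 0.05 (edgeR adjusted p 0.0317). It was not called without LV-NC replicate 2 or 3 (0.077 and 0.058) or else MUCP1-FLAG replicate 2 or 3 (0.129 and 0.169), nor with upper-quartile scaling (adjusted p 0.0537). On the FPKM scale LV-NC replicate 1 lay above all 3 MUCP1-FLAG values, at 145 against 139 to 139.8, and limma on log2(FPKM + 1) gave POLD2 a log2 fold change of 0.09 with an adjusted p of 0.416.

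POLE2, the second subunit of the polymerase epsilon core, measured 11.3, 11.7 and 11.3 CPM across LV-NC and 13.97, 13.3 and 14.2 CPM across MUCP1-FLAG. Its groups did not overlap, but the log2 fold change of 0.27 ± 0.09 missed the threshold (edgeR adjusted p 0.0582). POLE3 and POLE4, histone-fold subunits, had log2 fold changes of −0.02 ± 0.05 and −0.10 ± 0.09, with edgeR adjusted p of 0.86 and 0.494. POLE3 turned sign with LV-NC replicate 1 or MUCP1-FLAG replicate 1 left out. On the FPKM scale the ratio of POLE3 to POLE was 7.39 to 7.74 in LV-NC and 5.69 to 6.77 in MUCP1-FLAG, ranges that do not overlap. A change in this ratio was not tested. POLD1, the catalytic subunit of polymerase delta, stood at 0.13 ± 0.06, POLD3 at 0.15 ± 0.06 and POLD4, the least counted of the 46 genes, at 0.11 ± 0.12. Their edgeR adjusted p were 0.171, 0.0999 and 0.588, and that of POLD1 was 0.0219 without LV-NC replicate 1. The interval of POLD4, −0.14 to 0.37, is the widest of the 46.

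PCNA, the ring that holds polymerases on DNA and the gene with the smallest adjusted p of the 46, measured 271, 255 and 266 CPM across LV-NC and 349, 339 and 329 CPM across MUCP1-FLAG. The lowest MUCP1-FLAG library exceeded the highest LV-NC library by more than the range within either group. The rise was 1.28-fold, 0.36 ± 0.05 on the log2 scale (edgeR adjusted p 8.51e-06). Pseudogenes named after PCNA, PCNAP1, PCNAP3 and PCNAP4, could share some of its reads.

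Of the 5 subunits of replication factor C, the loader that opens the ring, RFC5 was called. It measured 64.6, 64.5 and 62.8 CPM across LV-NC and 70.2, 73.7 and 71.6 CPM across MUCP1-FLAG and rose by 0.17 ± 0.06 (edgeR adjusted p 0.0411), without overlap. This call was among the weakest, since DESeq2 gave an adjusted p of 0.0564, upper-quartile scaling 0.066 and limma on log2(FPKM + 1) 0.625, and it was lost without LV-NC replicate 2 (0.121) or else MUCP1-FLAG replicate 1, 2 or 3 (0.0749, 0.17 and 0.121). RFC1, the large subunit, stood at 0.12 ± 0.06, RFC2 at 0.17 ± 0.06, RFC3 at 0.14 ± 0.06 and RFC4 at 0.11 ± 0.05, with edgeR adjusted p from 0.0571 (RFC2) to 0.186 (RFC1). Each of these passed with 1 library left out except RFC4: the adjusted p was 0.00284 for RFC2 without LV-NC replicate 1, and 0.0166 for RFC1 and 0.0213 for RFC3 without LV-NC replicate 3. The ratio of PCNA to RFC1 on the FPKM scale was 7.97 to 9.71 in LV-NC and 10.2 to 11.6 in MUCP1-FLAG, without overlap. A change in this ratio was not tested.

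RPA, which coats the unwound single strands, had all 3 subunits called higher by edgeR, though RPA2 was not called with upper-quartile scaling (adjusted p 0.0616) or by DESeq2 (0.0549). RPA1, the large DNA-binding subunit, measured 147, 142 and 136 CPM across LV-NC and 159, 159 and 163 CPM across MUCP1-FLAG and rose by 0.18 ± 0.05 (edgeR adjusted p 0.0157). RPA2, the subunit phosphorylated in the damage response, measured 59.2, 57.7 and 53.8 CPM across LV-NC and 64.1, 64.0 and 65.3 CPM across MUCP1-FLAG and rose by 0.18 ± 0.06 (edgeR adjusted p 0.0391). RPA3 measured 28.7, 31.1 and 28.8 CPM across LV-NC and 33.3, 37.0 and 35.7 CPM across MUCP1-FLAG and rose by 0.26 ± 0.07 (edgeR adjusted p 0.016).

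The groups overlapped for none of the 3 subunits. The calls nevertheless depended on single libraries. RPA1 did not pass without LV-NC replicate 2 (0.0718) or else MUCP1-FLAG replicate 3 (0.0998), and RPA3 without MUCP1-FLAG replicate 2 (0.0998) or 3 (0.0722). RPA2 passed in 1 of the 6 fits with a library left out, the one without LV-NC replicate 1, and its adjusted p were 0.102 and 0.0796 without LV-NC replicates 2 and 3 and 0.0951, 0.101 and 0.145 without MUCP1-FLAG replicates 1, 2 and 3.

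Of the enzymes that turn Okazaki fragments into a continuous strand, the flap nuclease FEN1 and the ligase LIG1 rose. LIG1, which seals the nicks, measured 46.1, 48.6 and 44.4 CPM across LV-NC and 58.4, 58.7 and 60.9 CPM across MUCP1-FLAG. The groups were well apart, with a 1.28-fold rise of 0.35 ± 0.06 on the log2 scale (edgeR adjusted p 0.000295). FEN1 measured 153, 142 and 134 CPM across LV-NC and 176, 175 and 173 CPM across MUCP1-FLAG, with the MUCP1-FLAG values close together and above all LV-NC values, and rose by 0.29 ± 0.05 (edgeR adjusted p 0.000542). DNA2, a nuclease and helicase for long flaps, had a log2 fold change of 0.21 ± 0.08 (95% interval 0.04 to 0.39, edgeR adjusted p 0.0966). RNASEH2A, the catalytic subunit of the enzyme that removes ribonucleotides from DNA, had one of 0.16 ± 0.07 (0.02 to 0.30, edgeR adjusted p 0.104). Without LV-NC replicate 1 the edgeR adjusted p of RNASEH2A was 0.03, under the threshold. Neither gene passed with all 6 libraries, though in both the groups did not overlap. Exons of RNASEH2A overlap those of THSD8 over 30.8% of their length on the same strand.

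The transcripts of the 46 genes differed widely in level. On the FPKM scale, which allows for gene length, DNA2 was lowest at 4.02 ± 0.161 and MCM7 highest at 335 ± 21.8 in LV-NC (mean ± SD, n = 3), an 83.5-fold span. After MCM7 came MCM4 at 227 ± 1.996 and PCNA at 208 ± 7.02. MCM4 and PCNA were apart by more than their spread in LV-NC, and in MUCP1-FLAG their means of 254 ± 14.8 and 264 ± 7.36 FPKM stood in the opposite order, within their spread. Genes of one complex were not at one level. MCM7 exceeded MCM5 8.19-fold, POLD2 exceeded POLD4 11.6-fold and POLE3 exceeded POLE2 10.5-fold, whereas the RPA subunits lay within 1.31-fold, between 28.4 ± 1.19 (RPA3) and 37.1 ± 1.80 FPKM (RPA2). FEN1 exceeded DNA2 18.2-fold. The spans were similar in MUCP1-FLAG, at 8.72-fold for MCM7 over MCM5 and 1.25-fold for RPA2 over RPA3.

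FPKM values were higher in all 3 MUCP1-FLAG libraries than in all 3 LV-NC libraries for 30 of the 46 genes and lower for 0, whereas over all genes tested the shares on this scale were 13.2% and 16.7%. The log2 ratio of mean FPKM differed from that of mean CPM by more than 0.1 in 3 genes. For LIG1 the ratio was 0.14 larger on the FPKM scale, a 1.41-fold difference between groups. For RFC5 it was 0.12 smaller, at 0.05, and for PRIM2 0.10 smaller, at −0.02. The cause of these differences between the deposited counts and FPKM was not tested.

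**Figure D4:**
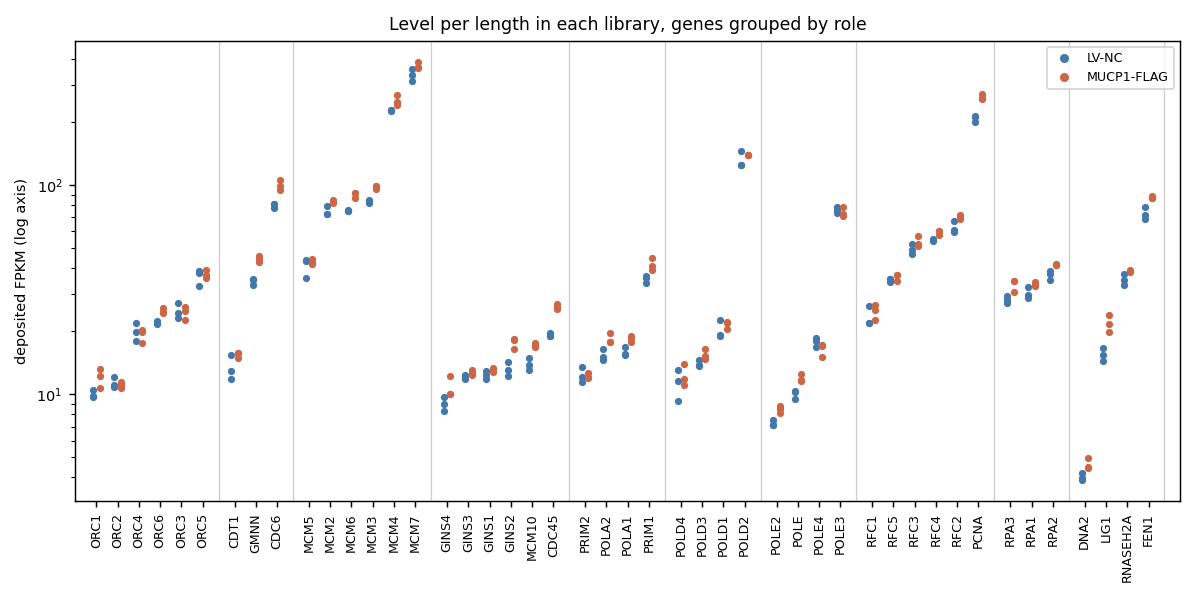
Deposited FPKM (log axis) of each gene in each library, with genes grouped by role and ordered by level within a role. MCM7 at 335 and DNA2 at 4.02 FPKM in LV-NC mark the ends of the range, and the RPA subunits lie closest together among the groups.

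Genes around the fork were compared through further lists. Of 44 other replication factors, which include checkpoint, chromatin assembly and clamp unloading genes, 9 rose and 1 fell (20.5% and 2.27%), with a median log2 fold change of 0.12. UHRF1, which guides maintenance methylation behind the fork, rose from 157 ± 1.80 to 196 ± 3.13 CPM (mean ± SD, n = 3). Its log2 fold change in edgeR was 0.32 ± 0.05, with an adjusted p of 4.29e-05. TICRR, which brings CDC45 to origins, rose by 0.48 ± 0.08 (edgeR adjusted p 0.000224), and the histone chaperone ASF1B by 0.33 ± 0.06 (edgeR adjusted p 0.000382). The nuclease EXO1 rose by 0.31 ± 0.07 (edgeR adjusted p 0.00448). The gene that fell was TOP1, topoisomerase I, from 453 ± 12.1 to 411 ± 2.15 CPM (−0.14 ± 0.04, edgeR adjusted p 0.0292). Without LV-NC replicate 3 the number of these factors that rose was 15, without the low-count filter 14 and with limma on log2(FPKM + 1) 3. TOP1 was not called without LV-NC replicate 2 or any one MUCP1-FLAG library. At an unadjusted p under 0.05 in edgeR, 20 of the 44 were higher and 2 lower, beside 14.7% of all genes in each direction.

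Of 19 E2F, RB and DREAM genes, the regulators of cell cycle transcription, 5 rose and 0 fell (26.3%), with a median of 0.06. MYBL2, which activates genes of late S phase and mitosis, rose from 98.7 ± 7.62 to 142 ± 1.33 CPM (0.53 ± 0.06, edgeR adjusted p 9.20e-07). E2F8, a repressive E2F, rose from 22.9 ± 1.03 to 35.2 ± 1.39 CPM (0.62 ± 0.07, edgeR adjusted p 3.79e-06), and E2F7, its relative, by 0.35 ± 0.10 (edgeR adjusted p 0.0159). TFDP1, a dimer partner of the E2F factors, rose by 0.16 ± 0.05 and E2F2, an activating E2F, by 0.37 ± 0.11 (edgeR adjusted p 0.0188 and 0.0309). E2F1, the best known activator, stood at 0.05 ± 0.06 (edgeR adjusted p 0.621). Leaving out LV-NC replicate 2 left 2 that rose and leaving out MUCP1-FLAG replicate 1 or 3 left 3, limma on log2(FPKM + 1) called 2 higher, and 1 gene fell when LV-NC replicate 1 was left out. At an unadjusted p under 0.05 in edgeR, 6 were higher and 2 lower, beside 14.7% of all genes in each direction. DESeq2 called 4 higher and 0 lower, beside 7.12% and 6.36% of all genes.

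Of 16 genes of deoxynucleotide supply 6 rose and 0 fell (37.5%), with a median of 0.16. The log2 fold changes of the 6 ran from 0.35 to 0.63, beside 0.16 to 0.47 for the 24 called genes of the fork and origins. RRM2, the regulated subunit of ribonucleotide reductase, rose from 455 ± 13.01 to 693 ± 22.8 CPM (0.61 ± 0.04, edgeR adjusted p 3.87e-09), and TYMS, thymidylate synthase, from 175 ± 5.40 to 271 ± 9.76 CPM (0.63 ± 0.05, edgeR adjusted p 4.97e-09). RRM1, the large subunit of ribonucleotide reductase, rose by 0.35 ± 0.05 (edgeR adjusted p 1.69e-05). At an unadjusted p under 0.05 in edgeR, 9 of the list were higher and 0 lower, beside 14.7% of all genes in each direction. DESeq2 called 6 higher and 0 lower, beside 7.12% and 6.36% of all genes. No difference between the lists was tested.

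Of 29 genes of mitosis 18 rose and 0 fell (62.1%), with a median of 0.21. With limma on log2(FPKM + 1) the number that rose was 8, and with single libraries left out it ranged from 12 to 23. CCNA2, cyclin A, which acts in S phase and at entry into mitosis, rose from 77.5 ± 3.30 to 101 ± 3.65 CPM (0.38 ± 0.05, edgeR adjusted p 4.57e-05). TOP2A, which untangles sister chromatids, rose by 0.35 ± 0.05, the kinesin KIF20A by 0.46 ± 0.07 and the chromosomal passenger INCENP by 0.34 ± 0.06 (edgeR adjusted p 9.55e-05, 0.000109 and 0.000301). At an unadjusted p under 0.05 in edgeR, 24 were higher and 0 lower, beside 14.7% of all genes in each direction. DESeq2 called 17 higher and 0 lower, beside 7.12% and 6.36% of all genes.

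**Figure D5:**
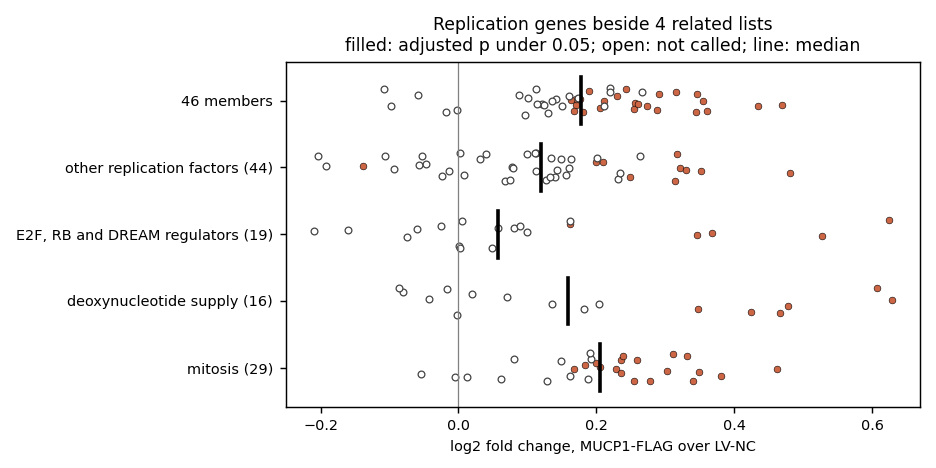
Log2 fold change of MUCP1-FLAG over LV-NC (horizontal axis) for each gene of the 46 and of 4 related lists, with filled points called at an edgeR adjusted p under 0.05 and a bar at each list's median. The medians run from 0.06 for the E2F, RB and DREAM genes to 0.21 for mitosis, with 0.18 for the 46 genes.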

How the data were processed

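RNA of SW480 cells, 3 LV-NC and 3 MUCP1-FLAG libraries, was sequenced after an mRNA library kit, per the labels' protocols. Fastp, HISAT2, featureCounts, DESeq2 and GRCh38 are named, per the submitters' processing notes, and versions, strand setting and the handling of reads shared between genes are not given in the sources used here. The authors deposited whole-number read counts and FPKM per gene and library, and a comparison of their own with a log2 fold change and an FDR, an adjusted p-value deposited per gene without the test behind it.

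The deposited counts were tested with edgeR 4.0.16 in R 4.3.3 (quasi-likelihood F test, robust, TMM scaling, filterByExpr with a minimum count of 10) over all 6 libraries and 12920 genes. Benjamini-Hochberg adjustment ran over all genes tested, and 0.05 was the threshold. Standard errors were derived from the F statistics, intervals are at 95%, and CPM were computed with TMM factors. Libraries of one group differed beyond sampling noise (chi-square per degree of freedom of 2.58 to 8.22). Alternatives were DESeq2 1.42.0, other scaling factors and filters, limma 3.58.1 on log2(FPKM + 1) and log2(FPKM + 0.1), a replicate block and each library left out. The fit was tested on simulated data, where it recovered 20 of 50 genes changed 1.2-fold and 37 of 50 changed 1.3-fold. The changed genes were drawn at random from the 12920 genes, so recovery among the 46 was not measured. A gene that was not called is therefore not shown to be unchanged. Gene positions are from GENCODE 29 (GRCh38) and promoter windows from RefSeq (GRCh38.p14). The 46 genes, the other lists and the alternatives were chosen with earlier results of these data known. Every one of the 46 genes is reported, and from each other list the 4 called genes with the smallest adjusted p and each called E2F gene, except 1 gene that is not reported here. TOP1 and the genes not called in those lists were named after their values were seen.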

Additional observations from a re-analysis of the deposited data

How the results depend on the processing

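The count of 24 replication genes called higher was 24 with DESeq2 size factors and with a stricter low-count filter, 20 with upper-quartile factors, 21 with the DESeq2 test, 27 without the low-count filter, 10 with limma on log2(FPKM + 1) and 10 on log2(FPKM + 0.1), and 13 to 30 with single libraries left out. No setting called any of the 46 lower. On both FPKM scales limma called 3 other replication factors, 2 E2F, RB and DREAM genes and 8 genes of mitosis higher, and 514 and 516 of all genes higher and 544 and 549 lower. Without the low-count filter 14 other replication factors were higher. With single libraries left out, other replication factors ranged from 6 to 15 higher and 0 to 1 lower, and E2F, RB and DREAM genes from 2 to 6 higher and 0 to 1 lower, and genes of mitosis from 12 to 23 higher. Over all genes, 639 to 1323 were higher and 624 to 1213 lower with single libraries left out. ORC3 turned sign without the filter (0.0023) and ranged from −0.0512 to 0.0611 with single libraries left out, POLE3 from −0.0649 to 0.0080, and PRIM2 was −0.0125 and −0.0133 on the FPKM scales. Fits with a library left out have fewer residual degrees of freedom, and the cause of these differences was not tested. Shared replicate numbers did not pair the libraries, since deviations of same-numbered libraries correlated at 0.035, 0.050 and 0.002 and not every library correlated best with its own number. With the replicate number as a block 23 of the 46 genes were higher and 0 lower. ORC6 (adjusted p 0.0538), RFC5 (0.0621) and RPA2 (0.0554) were not called there, and CDT1 (0.046) and RFC2 (0.0422) were. The lowest count of the 46 genes in any library was 172, for POLD4, and the effect of depth on the calls was not tested.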

Other observations

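The deposited table labels 40 genes with the KEGG term for DNA replication. Of these 31 belong to the 46 genes described above, and 15 of the 46, among them CDC6, CDT1, geminin and CDC45, are not labelled with it. Of the 9 further genes 7 were tested, and 4 of the 9 have no symbol. At an edgeR adjusted p under 0.05, 0 of the 7 were higher and 0 lower, beside 8.35% and 7.71% of all genes tested. At an unadjusted p under 0.05 there were 0 in either direction, beside 14.7% of all genes in each. With 7 genes these counts cannot be told apart from those shares. RNASEH2B and RNASEH2C, the partners of RNASEH2A in ribonuclease H2, had log2 fold changes of 0.11 ± 0.06 and 0.08 ± 0.07. Both also belong to the list of other replication factors above. RNASEH1 and the mitochondrial single-strand binding protein SSBP1 had 0.05 ± 0.05 and 0.07 ± 0.05.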
